A study of Mus musculus with 7 samples.

Results

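A group of 10 genes that pancreatic β-cells keep at low levels, namely Ldha, Slc16a1, Acot7, Oat, Igfbp4, Pdgfra, Cxcl12, Smad3, Fcgrt and Hk1, was examined in islet RNA-seq of F2 male mice. The genes were picked by name as known silenced genes, with earlier results of these data in view, and all 10 were found among the 21899 genes listed for the libraries. The mice were C57BL/6J. F0 dams of the AE (androgen exposure) group received subcutaneous dihydrotestosterone on consecutive days of late pregnancy, and control dams received the oil vehicle over the same days. F1 sons, which were in utero during these injections and were not treated after birth, were mated with unrelated wild-type females, and the F2 males themselves were untreated. The age of the F2 males at islet isolation, and whether islets of several males were pooled, is not given in the labels. Islets were released with collagenase, picked by hand and kept in culture medium, which leaves endocrine cells together with the vessel, stromal, nerve and immune cells that come with an islet. The labels list 3 control-F2 and 4 AE-F2 samples. Counts of control-F2 replicate 1 and AE-F2 replicate 4 were analysed here, and the other 5 samples were not analysed here. There is therefore 1 library in each group, so no spread between animals could be estimated, no p-value was computed, and each difference below is one between 2 libraries. The libraries held 16285881 and 21278511 counts. Every interval given is a 95% interval that covers counting error only. It takes no account of differences between animals, and the counts carry no molecular identifiers.

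Mature β-cells are known for silencing a small set of housekeeping genes that most other tissues use, often called β-cell disallowed genes. The best understood are Ldha, the lactate dehydrogenase subunit that favors the conversion of pyruvate to lactate, and Slc16a1, the plasma membrane carrier MCT1 for lactate and pyruvate. With both low, pyruvate from glucose goes mainly to mitochondria, and circulating lactate or pyruvate does not trigger insulin release. Hk1, a hexokinase with high affinity for glucose, is low in the same cells. DNA methylation, repressive histone marks and microRNAs of the miR-29 family are among the known means of this silencing. Several of the genes are normal products of other islet cells: Pdgfra marks fibroblasts, and Cxcl12 is made by stromal and endothelial cells. In bulk islets, fewer cells of a type and less RNA per cell cannot be told apart, and this holds for every level below.

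The label of low expression was checked against the levels, given as CPM (counts scaled to the library total) and, for comparing genes, as CPM per kilobase of the longest coding transcript. Among 13609 genes that averaged 10 or more counts and had a known length, 98.8% had a higher level per kilobase than Pdgfra in the control-F2 library. The share was 97.4% for Slc16a1, 91.2% for Cxcl12, 84.5% for Igfbp4 and 81.1% for Smad3. It lay between 72.1% and 74.5% for Hk1, Fcgrt, Oat and Acot7, and was 56.6% for Ldha. Pdgfra and Slc16a1 thus stood near the bottom of the measured genes, while Ldha lay near the middle. These ranks depend on the transcript length chosen: with the median length of the coding transcripts, 32.9% of genes stood above Hk1, 44.2% above Ldha and 47.8% above Smad3. β-cell RNA filled both libraries, with Ins2, an insulin gene, at 128469 CPM in the control-F2 and 123712 CPM in the AE-F2 library. Per kilobase, Ins2 stood 26181-fold above Ldha in the control-F2 library and 16628-fold above it in the AE-F2 library.

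All 10 genes averaged 10 or more counts over the 2 libraries, and each also had 10 or more counts in the control-F2 library alone. Ratios were set as AE-F2 over control-F2 on the log2 scale, after scaling for library size and composition, and were above 0 for 10 of 10 genes. Of all 13627 genes that averaged as many, 50% had a ratio above 0. Among the 4100 genes whose mean lay between 26.5 and 247.5 counts, the range of the 10 genes, the share was 56.8%. A 2-fold or larger excess in the AE-F2 library was seen for 5 of the 10 genes (Pdgfra, Slc16a1, Cxcl12, Oat and Igfbp4), against 3.16% of all genes and 4.34% of genes in the same range of counts. The count was 4, without Igfbp4, when the AE-F2 library was thinned to the control-F2 total, a trend with mean count was removed or the pseudocount was 5. As far lower were 0 of the 10, against 0.653% of all genes and 0.439% in that range. With a limit of 1.5-fold, 8 of the 10 were higher, against 6.04% and 9.93%. For 9 of the 10 genes the whole counting interval was above equality, and for Smad3 it included equality. At a 99% level the count was 8, since the interval of Acot7 then also reached equality. Of all genes, 13.4% had such an interval above and 13.4% below equality, and in the same range of counts 14.2% and 6.22% did. Of genes averaging 1000 or more counts, 16.3% had one above equality. The median log2 ratio was 0.82 over the 10 genes, 0.00 over all genes and 0.05 over the 4100 genes in the same range of counts, in which the 10th and 90th percentiles were -0.33 and 0.58.

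**Figure D1:**
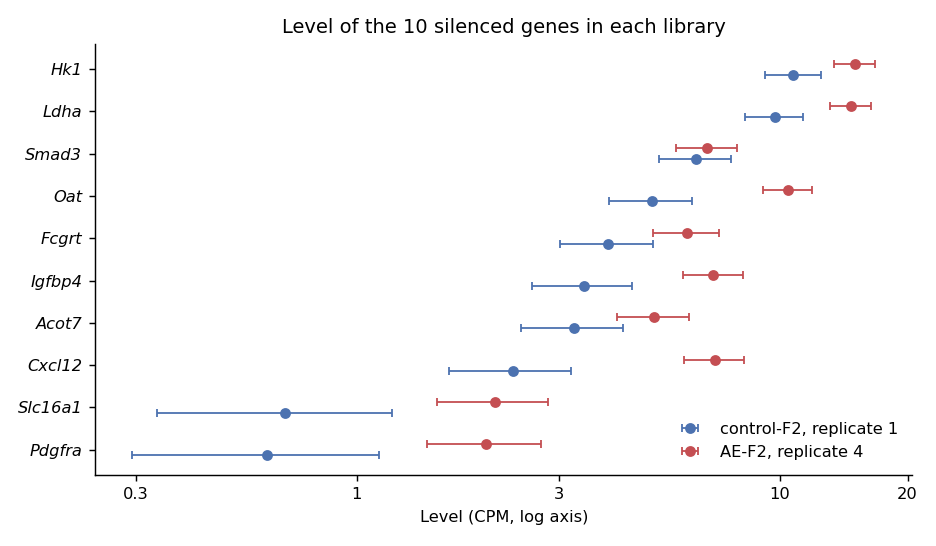
Level of each of the 10 genes in CPM on a log axis, with 1 point for the control-F2 library and 1 for the AE-F2 library, and bars for the exact 95% Poisson interval of the count. The AE-F2 point lies above the control-F2 point for all 10 genes, from 0.614 against 2.02 CPM for Pdgfra to 6.32 against 6.72 CPM for Smad3.

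**Figure D2:**
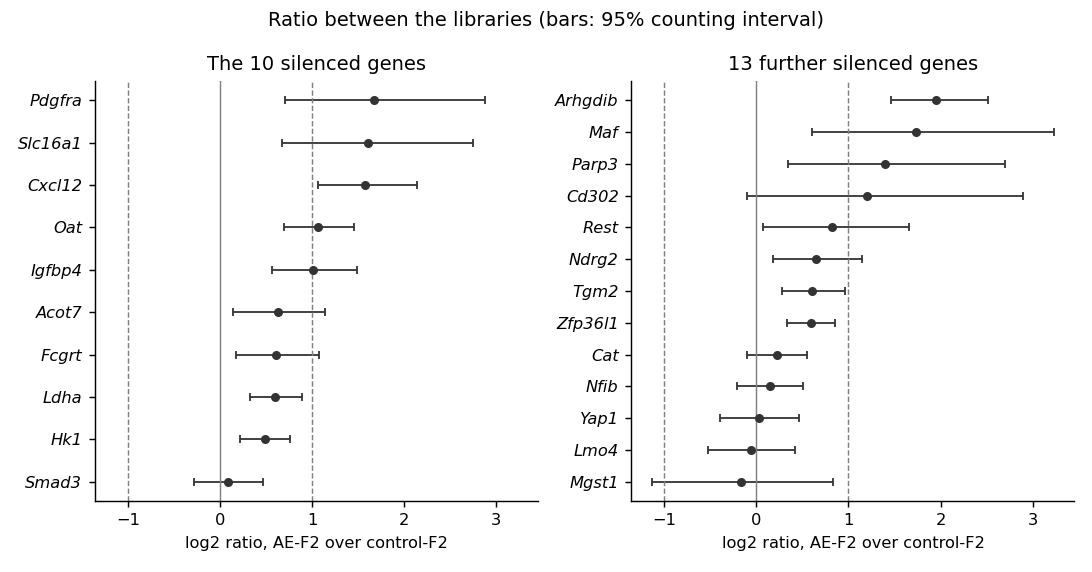
AE-F2 to control-F2 log2 ratio for each of the 10 genes and, in a second panel, for 13 further silenced genes. Bars show the 95% counting interval, with a line at equality. Among the 10 genes, Pdgfra, Slc16a1 and Cxcl12 stand highest, between 1.58 and 1.67, and the interval of Smad3 alone includes 0. In the second panel Arhgdib stands highest, at 1.96, and several intervals include 0.

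Slc16a1 (ENSMUSG00000032902, chr3:104638668-104658462, plus strand, GRCm38) had 11 counts in the control-F2 and 45 in the AE-F2 library. These are 0.675 CPM (0.337 to 1.21) and 2.11 CPM (1.54 to 2.83), and the intervals did not overlap. This gave a log2 ratio of 1.60 (0.68 to 2.75). Slc16a1 remained a rare transcript in the AE-F2 library, in which 91.9% of genes had a higher level per kilobase. Ldha (ENSMUSG00000063229, chr7:46841475-46855627, plus strand) had 158 counts in the control-F2 and 313 in the AE-F2 library, or 9.70 CPM (8.25 to 11.3) and 14.7 CPM (13.1 to 16.4). Its log2 ratio was 0.60 (0.32 to 0.89), a smaller difference on a higher level.

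Other genes that handle pyruvate, lactate and cytosolic NADH differed little between the libraries. Ldhb, which encodes the lactate dehydrogenase subunit typical of oxidative tissues, had 275 and 300 counts and a log2 ratio of -0.26 (-0.50 to -0.01). Per kilobase, the level of Ldhb over that of Ldha was 2.42 in the control-F2 and 1.33 in the AE-F2 library, 1.68 and 0.928 with the median transcript length, and 3.67 and 2.02 with merged exons. Ldhb was picked for this ratio as the partner subunit and not for its count. Among 21 genes of pyruvate use, which hold the pyruvate dehydrogenase complex and its kinases, 0 were 2-fold higher or lower, 3 had an interval above and 2 below equality, and the median log2 ratio was 0.02. The best counted were Pkm, the muscle form of pyruvate kinase, at -0.05, Pcx, the pyruvate carboxylase that refills the citric acid cycle, at 0.02, Pdha1, a pyruvate dehydrogenase subunit, at 0.10, and Dld, which is shared with that complex, at 0.05. Pdk4, a kinase that turns pyruvate dehydrogenase off, had the highest ratio of this list, 0.43 (0.26 to 0.60), and was named after its value was seen. The 9 genes of the shuttles that carry NADH electrons into mitochondria had a median of 0.04, with 0 past 2-fold, 2 intervals above equality and 0 below. Mdh1, the cytosolic malate dehydrogenase, was at 0.11 and Gpd2, the mitochondrial glycerol phosphate dehydrogenase, at 0.03.

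Other monocarboxylate carriers and their chaperones were set beside Slc16a1. Of 8 listed genes, 5 averaged 10 or more counts, and of these 0 were past 2-fold, 0 had an interval above and 2 below equality, with a median log2 ratio of -0.11. Slc16a10, an aromatic amino acid carrier of the same family, was at 448 and 417 CPM, and its level per kilobase was 544-fold that of Slc16a1 in the control-F2 and 162-fold in the AE-F2 library, or 1262-fold and 376-fold with the median transcript length. Bsg, the chaperone that brings MCT1 to the cell surface, had a log2 ratio of 0.03 (-0.02 to 0.07), and Emb, a related chaperone, had -0.14. Slc16a7, the carrier MCT2, had 61 and 68 counts and a log2 ratio of -0.23 (-0.75 to 0.30). Slc16a3, the carrier MCT4, had 9 and 11 counts, and its interval of -1.50 to 1.36 overlapped that of Slc16a1. The sodium-coupled carriers Slc5a8, with 1 count in each library, and Slc5a12, with 0 in each, were below what these depths could measure.

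Because miR-29 is a known repressor of Slc16a1 in β-cells, its family members are shown with the seed, bases 2 to 8, in capitals. The mature sequences and positions are those of RefSeq on GRCm38.p6. The levels of these microRNAs were not measured in these libraries.
mmu-miR-29a-3p (chr6:31062673-31062694, minus strand): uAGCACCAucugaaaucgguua
mmu-miR-29b-3p (chr1:195037091-195037113, plus strand): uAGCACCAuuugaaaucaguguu
mmu-miR-29c-3p (chr1:195037600-195037621, plus strand): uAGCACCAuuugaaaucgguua

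The 3 microRNAs share the seed AGCACCA, and a match to it reads TGGTGCT on the transcript strand. The 3′ UTRs of GENCODE M21 were searched for these letters on that strand, and 3 of the 10 genes held a match: Slc16a1 with 1, Pdgfra with 2 and Igfbp4 with 2. The other 7 genes held none in the transcript searched. Among 13462 genes searched, 15.7% held a match, and 15.9% did among those with a 3′ UTR of 256 to 5188 bases, the range of all 10 genes. Among the 565 genes with 2740 to 3115 bases, 27.4% did, but that range was taken only from the 3 genes with a match. Cxcl12 and Smad3, with longer 3′ UTRs of 5188 and 3495 bases, held none. The median log2 ratio was -0.01 for the 2113 genes with a match and 0.00 for those without. Windows of 30 bases around the matches, read from GRCm38 on the plus strand with the match in capitals, show where the seed would pair.
Slc16a1, chr3:104655774-104655803: ctgctggcctctagtctaccagTGGTGCTc
Pdgfra, chr5:75196343-75196372: actgcaaaccctgagaccacaaTGGTGCTg
Pdgfra, chr5:75196504-75196533: gaagctatatatatgaactgccTGGTGCTc
Igfbp4, chr11:99053211-99053240: gcatgtgtcaccTGGTGCTcacTGGTGCTc

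Hk1 (ENSMUSG00000037012, chr10:62268855-62379908, minus strand) had 175 counts in the control-F2 and 320 in the AE-F2 library. These are 10.7 CPM (9.21 to 12.5) and 15.0 CPM (13.4 to 16.8), and the log2 ratio was 0.49 (0.22 to 0.76). An antisense gene, Hk1os, shares 157 exonic bases with Hk1, and the library kit is not described as marking strand, so reads from these bases cannot be told apart. Other hexokinases were near the limit of counting, Hk2 with 4 and 8 counts, Hk3 with 8 and 9, and Hkdc1 with 1 and 3.

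Of 14 genes of glucose entry and phosphorylation, 10 averaged 10 or more counts, with a median log2 ratio of -0.06 and 0 past 2-fold. The interval lay above equality for 2 and below it for 2. Slc2a2, the main glucose transporter of mouse β-cells, was among those lower, at -0.28 (-0.31 to -0.25), and G6pc2, an islet glucose-6-phosphatase, was at -0.07. Slc2a3, a glucose transporter with high affinity, had 49 and 119 counts and a log2 ratio of 0.89 (0.41 to 1.41). It had the highest ratio in this list and was named after its value was seen.

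Acot7 (ENSMUSG00000028937, chr4:152178134-152271855, plus strand), which cleaves long-chain acyl-CoA, had 53 and 107 counts, or 3.25 CPM (2.44 to 4.26) and 5.03 CPM (4.12 to 6.08). The ratio on the log2 scale was 0.62 (0.14 to 1.13), although the intervals of the 2 levels met. Of 12 other acyl-CoA thioesterases, 8 averaged 10 or more counts, with a median log2 ratio of 0.10 and 0 with an interval off equality. Acot11 was the best counted, with 666 and 888 counts and a ratio of 0.03 (-0.11 to 0.18). Its level per kilobase was 3.32-fold that of Acot7 in the control-F2 and 2.20-fold in the AE-F2 library, or 10.2-fold and 6.77-fold with the median transcript length.

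Oat (ENSMUSG00000030934, chr7:132557478-132576398, minus strand), the ornithine aminotransferase of mitochondria, had 81 counts in the control-F2 and 222 in the AE-F2 library. These are 4.97 CPM (3.95 to 6.18) and 10.4 CPM (9.11 to 11.9), well apart, and the log2 ratio was 1.07 (0.70 to 1.46). Of 15 genes of ornithine and proline metabolism, 13 averaged 10 or more counts. Their median log2 ratio was -0.04, with 1 past 2-fold higher, 1 interval above and 5 below equality, so that Oat stood apart in size from most of the genes around it. Aldh18a1, which feeds glutamate into the proline and ornithine route that Oat joins, had 2277 and 2298 counts and a log2 ratio of -0.37 (-0.45 to -0.28). Per kilobase, Aldh18a1 was 17.2-fold above Oat in the control-F2 and 6.32-fold above it in the AE-F2 library, or 62.8-fold and 23.1-fold with the median transcript length. The arginine carrier Slc7a2 was at -0.04, Oaz1, an inhibitor of ornithine decarboxylase, at -0.06, and Azin1, which counters that inhibitor, at 0.12. The gene past 2-fold was Prodh, the proline dehydrogenase, with 5 and 16 counts and an interval of -0.22 to 3.10, and it was named after its value was seen.

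**Figure D3:**
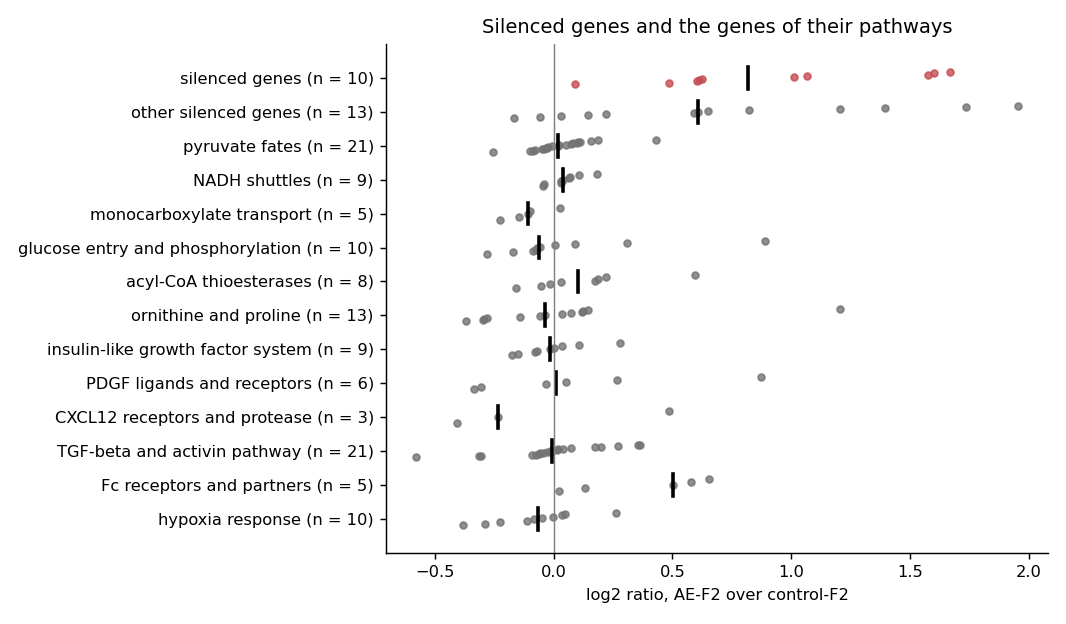
AE-F2 to control-F2 log2 ratios for the 10 silenced genes, for a wider list of silenced genes and for lists of pathway partners, with 1 point for each gene averaging 10 or more counts and a bar at the median of each list. The 10 genes have a median of 0.82 and the wider silenced list 0.61 (0.40 without 3 genes under 10 control-F2 counts), while the medians of the partner lists lie between -0.23 and 0.50. The highest of these, for Fc receptors and partners, depends on which genes pass the minimum of 10 counts.

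The signaling and secreted genes of the group showed the widest range of ratios. Pdgfra (ENSMUSG00000029231, chr5:75152292-75198215, plus strand), a receptor for platelet-derived growth factors, had 10 counts in the control-F2 and 43 in the AE-F2 library, or 0.614 CPM (0.294 to 1.13) and 2.02 CPM (1.46 to 2.72). The log2 ratio was 1.67 (0.71 to 2.88), the highest of the 10 genes, and its interval was also the widest. Gm42802, Gm42803 and Mir7025 share 456, 166 and 30 exonic bases with Pdgfra, the first pair on the opposite strand, and their reads could not be separated from those of Pdgfra. Of the 6 other genes of the family, 0 were past 2-fold, 0 had an interval above and 2 below equality, and the median log2 ratio was 0.01. Pdgfrb, the receptor of pericytes, had 406 and 549 counts and a ratio of 0.05 (-0.13 to 0.24). Its level per kilobase was 51.2-fold that of Pdgfra in the control-F2 and 16.1-fold in the AE-F2 library, or 21.6-fold and 6.78-fold with the median transcript length. The ligands Pdgfa and Pdgfb were lower, at -0.34 (-0.57 to -0.10) and -0.31 (-0.57 to -0.05).

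Slc16a1 and Pdgfra had ratios of like size but promoters of opposite makeup, which are shown because CpG methylation is a known means of silencing. The sequences run from 250 bases before to 50 bases after the RefSeq start on GRCm38.p6, plus strand, with each CpG in capitals. Methylation was not measured in these libraries.
Slc16a1, chr3:104638414-104638713: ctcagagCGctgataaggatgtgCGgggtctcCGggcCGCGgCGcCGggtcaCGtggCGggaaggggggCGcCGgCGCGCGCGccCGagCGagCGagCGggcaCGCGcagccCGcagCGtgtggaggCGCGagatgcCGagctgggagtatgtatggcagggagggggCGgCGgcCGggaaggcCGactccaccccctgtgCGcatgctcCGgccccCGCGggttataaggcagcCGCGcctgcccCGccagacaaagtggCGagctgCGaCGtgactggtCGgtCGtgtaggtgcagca
Pdgfra, chr5:75152001-75152300: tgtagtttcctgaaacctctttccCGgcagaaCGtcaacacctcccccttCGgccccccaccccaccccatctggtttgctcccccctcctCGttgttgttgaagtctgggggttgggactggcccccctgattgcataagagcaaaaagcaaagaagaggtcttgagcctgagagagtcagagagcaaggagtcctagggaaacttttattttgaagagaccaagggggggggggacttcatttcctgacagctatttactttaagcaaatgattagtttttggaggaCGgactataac

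The Slc16a1 promoter held 42 CpG, and 94.5% of 13660 promoters of genes averaging 10 or more counts held fewer. The Pdgfra promoter held 5, and 10.9% of these promoters held fewer. The median was 20 over the 12 promoters of the 10 genes and 20 over these 13660, so that CpG count did not set the group apart.

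Cxcl12 (ENSMUSG00000061353, chr6:117168535-117181367, plus strand), a chemokine that keeps leukocytes and progenitors in place, had 38 counts in the control-F2 and 149 in the AE-F2 library. These are 2.33 CPM (1.65 to 3.20) and 7.0 CPM (5.92 to 8.22), with a clear gap between the intervals. Its log2 ratio was 1.58 (1.07 to 2.14), and its lower limit was the highest of the 10 genes. Its signaling receptor Cxcr4, also abundant on lymphocytes, had 60 and 110 counts and a ratio of 0.49 (0.03 to 0.97). The scavenging receptor Ackr3 had 61 and 60 counts and a ratio of -0.41 (-0.94 to 0.13), and Dpp4, a protease that trims Cxcl12, had -0.23 (-0.34 to -0.13). The receptors and the protease therefore did not move one way.

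Igfbp4 (ENSMUSG00000017493, chr11:99041244-99054392, plus strand), a secreted binding protein that restrains insulin-like growth factors, had 56 counts in the control-F2 and 148 in the AE-F2 library, or 3.44 CPM (2.60 to 4.47) and 6.96 CPM (5.88 to 8.17). The log2 ratio was 1.01 (0.57 to 1.49), just past the 2-fold limit, and was 0.96 after thinning, 0.94 with the mean count trend removed and 0.94 with a pseudocount of 5. Of 13 other genes of this growth factor system, 9 averaged 10 or more counts, with a median of -0.02, 0 past 2-fold, 1 interval above and 2 below equality. Igfbp7 was the best counted binding protein, at 173 and 170 CPM with a ratio of -0.02, and per kilobase it was 160-fold above Igfbp4 in the control-F2 and 78.2-fold above it in the AE-F2 library, or 32.2-fold and 15.7-fold with the median transcript length. Igfbp3, another binding protein, was at 0.11, Pappa2, a protease that cleaves such proteins, at -0.07, and the clearance receptor Igf2r at 0.00.

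Fcgrt (ENSMUSG00000003420, chr7:45092990-45103851, minus strand), the heavy chain of the neonatal Fc receptor that recycles IgG and albumin, had 64 and 128 counts, or 3.93 CPM (3.03 to 5.02) and 6.02 CPM (5.02 to 7.15). The log2 ratio was 0.61 (0.17 to 1.07). Its light chain partner B2m, which also pairs with all class I major histocompatibility proteins, had 1104 and 2041 counts and a ratio of 0.50 (0.40 to 0.61). The level of B2m over that of Fcgrt per kilobase was 35.5 in the control-F2 and 32.8 in the AE-F2 library. Of 6 listed Fc receptor genes and partners, B2m included, 5 averaged 10 or more counts, with a median of 0.50, 0 past 2-fold, 1 interval above equality and 0 below. Fcgr4, with 9 and 18 counts and a ratio of 0.58, reached that minimum through the AE-F2 library alone. Fcgr1, with 10 and 9 counts and a ratio of -0.53, fell below it, so the median of 0.50 depends on the filter. Both were named after their values were seen. Fcer1g, the signaling chain of leukocyte Fc receptors, had a ratio of 0.02 (-0.53 to 0.59).

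Smad3 (ENSMUSG00000032402, chr9:63646767-63757994, minus strand), which carries TGF-β and activin signals to the nucleus, had 103 counts in the control-F2 and 143 in the AE-F2 library. These are 6.32 CPM (5.16 to 7.67) and 6.72 CPM (5.66 to 7.92), with widely overlapping intervals. Its log2 ratio was 0.09 (-0.28 to 0.47), so no difference was detectable at this depth. Of 21 other genes of the pathway, 0 were past 2-fold and the median was -0.01. The interval lay above equality for 3, Tgfbr2 at 0.37, Tgfb1 at 0.36 and Smad1 at 0.17, and below it for Inhbb, an activin subunit, at -0.58, all named after their values were seen. Smad4, the common partner of the signaling Smads, was at -0.07, the receptor Tgfbr1 at -0.01 and the repressor Ski at 0.04. Smad2, the closest relative of Smad3, had a ratio of -0.02 (-0.17 to 0.14), and its level per kilobase was 3.79-fold that of Smad3 in the control-F2 and 3.52-fold in the AE-F2 library.

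Summed over the 10 genes, the counts were 749 in the control-F2 and 1618 in the AE-F2 library, or 46.0 and 76.0 CPM, a 1.66-fold difference (1.52 to 1.81). The 5 genes for enzymes and a transporter, Ldha, Slc16a1, Acot7, Oat and Hk1, summed to 478 and 1007 counts, 1.62-fold (1.45 to 1.81), and 2 of them were past 2-fold. The other 5, for signaling, secreted and receptor proteins, summed to 271 and 611 counts, 1.73-fold (1.5 to 2.0), with 3 past 2-fold. The intervals of the sums overlapped, so the 2 kinds of gene were not told apart. A wider list of 13 further genes described as silenced in β-cells, picked in the same way, was higher in the AE-F2 library for 11 and lower for 2. The median was 0.61, but 3 of these genes, Maf, Parp3 and Cd302, had fewer than 10 counts in the control-F2 library and reached the minimum mean through the AE-F2 library alone. Among the 10 others the median was 0.40, 8 had a ratio above 0, 1 was past 2-fold higher and 0 lower, and 5 had an interval above equality and 0 below. Over all genes, as given above, 50% had a ratio above 0, 3.16% were past 2-fold higher and 13.4% had an interval above equality. Those shares are over genes kept by the mean of both libraries and not by their control-F2 count, so the filters differ. The counts of all 13 summed to 849 and 1606, a 1.45-fold difference (1.34 to 1.58). The best counted were Zfp36l1, an RNA-binding protein, at 0.59 (0.34 to 0.85), Cat, the catalase, at 0.22 (-0.10 to 0.55), Tgm2, a transglutaminase, at 0.61 (0.27 to 0.96), and Nfib, a transcription factor, at 0.14 (-0.21 to 0.51). Arhgdib, abundant in blood cells, had 37 and 189 counts and the highest ratio, 1.96 (1.46 to 2.52). Lmo4 and Mgst1 were the 2 genes lower, at -0.06 and -0.17, and Maf, Parp3 and Cd302 had at most 32 counts in a library. These 5 were named after their values were seen.

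Ldha is also a target of the hypoxia response, and its difference was set beside 12 genes of that response. Of these, 10 averaged 10 or more counts, with a median log2 ratio of -0.07, 0 past 2-fold, 1 interval above and 3 below equality. Vegfa, the vascular growth factor, was lower at -0.23 (-0.27 to -0.19), and Aldoa, the glycolytic aldolase, was at 0.00 (-0.04 to 0.04). The gene with an interval above equality was Pgk1, a glycolytic kinase, at 0.26 (0.17 to 0.36), named after its value was seen.

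**Figure D4:**
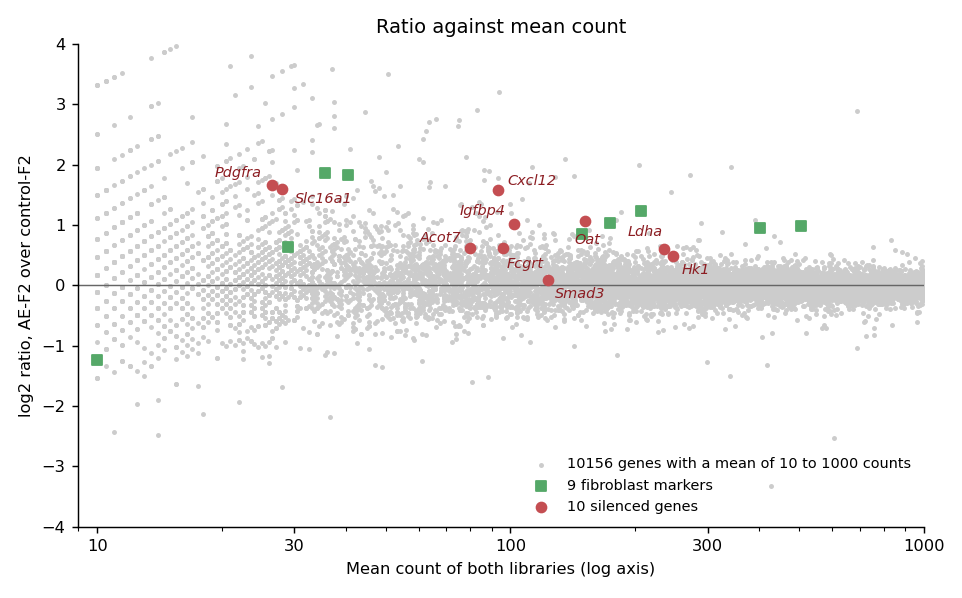
AE-F2 to control-F2 log2 ratio against the mean count of both libraries on a log axis, for the 10156 genes with a mean of 10 to 1000 counts, with the 10 silenced genes as red circles and 9 fibroblast markers as green squares. The silenced genes lie above 0 at means of 26.5 to 247.5 counts, most of the fibroblast markers lie above 0 with them, and 65 genes fall outside the drawn ratios of -4 to 4.

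Markers of several other cell types of an islet preparation also differed between the libraries, while the sums for delta, PP, endothelial and Schwann cell markers had intervals that included equality. The 10 fibroblast markers summed to 856 counts (52.6 CPM) in the control-F2 and 2257 counts (106 CPM) in the AE-F2 library, 2.02-fold (1.87 to 2.19). Of the 9 averaging 10 or more counts, 8 were higher, 7 had an interval above equality, and the median was 0.98. The collagens Col3a1, Col1a2 and Col1a1 were at 0.98, 0.96 and 1.23, and Dcn, a matrix proteoglycan, at 1.03, which are sizes like those of Oat and Igfbp4. Dpt, with 14 and 67 counts, and Lum, with 12 and 59, were at 1.84 and 1.87, at least as high as Pdgfra, Slc16a1 and Cxcl12. They were named after their values were seen. Pi16 was the marker lower, with 13 and 7 counts, and 0 of the 10 markers were at 3 counts or fewer in both libraries. The part of fibroblast RNA in the ratios of Pdgfra, Cxcl12, Igfbp4 and the other genes was not tested.

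The 10 lymphocyte markers summed to 256 and 7943 counts (15.7 and 373 CPM), 23.8-fold (21 to 27.1), with 7 of 7 measured markers higher. Ighm, an immunoglobulin heavy chain, had 51 and 5376 counts, Igkc, a light chain, 9 and 1820, and Ms4a1, the B-cell antigen CD20, 3 and 150. Cd79a, a chain of the B-cell receptor, differed least of the measured markers, with 178 and 391 counts and a log2 ratio of 0.75 (0.49 to 1.02). It held most of the control-F2 counts of the list, and without it the other 9 markers summed to 78 and 7552 counts, 74.3-fold (59.5 to 94.1), a sum added, like those without Lyz2 and Gcg, after seeing the data. The T-cell markers Cd3e and Cd3d had 0 counts in the control-F2 and 10 and 5 in the AE-F2 library. Lymphocytes use Slc16a1, Ldha, Hk1, B2m and Arhgdib too, and the part of their RNA in the ratios of these genes was not tested. Macrophage markers summed to 87.5 and 104 CPM, 1.19-fold (1.11 to 1.27), with 6 of 10 higher and a median of 0.06. Without Lyz2 the other 9 summed to 0.955-fold (0.888 to 1.03), so the direction of the sum rested on that gene. Among them Lyz2, a lysozyme of myeloid cells, was at 1.96 and C1qa, a complement subunit, at -0.25.

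The endocrine, vascular and exocrine lists were summed in the same way. The 10 β-cell markers summed to 1.00-fold, with a median of -0.10. The interval lay below equality for 8 and above it for 2. Among those lower were Pdx1, a transcription factor of β-cells, at -0.17 and Mafa, another, at -0.10. Ins2 was at -0.05, Ins1 at 0.07 and Iapp, the islet amyloid peptide, at 0.23. These genes held nearly all counts of the list, so its sum says little about the other markers. Alpha cell markers, led by Gcg, the glucagon gene, summed to 1.37-fold (1.37 to 1.38), with 2 of 5 intervals above equality and a median of 0.13. Gcg held nearly all of these counts, and without it the other 4 markers summed to 1.10-fold (1.03 to 1.17), while delta markers and Ppy were at 0.997-fold and 0.989-fold. Pericyte markers were at 1.06-fold (1.01 to 1.10) with 7 of 8 higher, and endothelial markers at 0.991-fold (0.966 to 1.02), among which Cldn5 had 2 counts in each library. Acinar markers were at 0.745-fold (0.733 to 0.756), with 10 of 10 measured markers lower, from 2161 to 1605 CPM, and Ptf1a had 3 and 2 counts. Duct markers were at 1.16-fold (1.12 to 1.21), Schwann cell markers at 1.11-fold (0.941 to 1.30), and the globin genes of red cells at 1.39-fold (1.28 to 1.5). Of the adipocyte markers, Adipoq, Plin1 and Lep had 0 counts in both libraries and Cidec had 0 and 3.

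**Figure D5:**
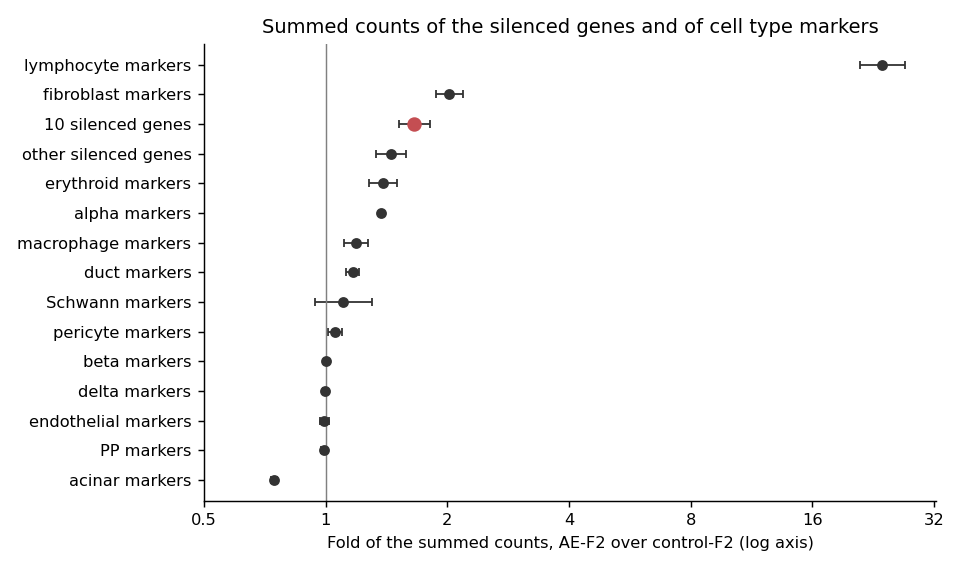
Fold of AE-F2 over control-F2 on a log axis for the summed counts of the 10 silenced genes, of the wider silenced list and of each cell type's markers, with bars for the 95% counting interval. The silenced genes stand at 1.66-fold, between fibroblast markers at 2.02-fold and the wider silenced list at 1.45-fold, the lymphocyte markers lie far above at 23.8-fold, and the β-cell markers lie at 1.00-fold. Nearly all counts of the β-cell sum come from the insulin genes and Iapp.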

How the data were processed

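Islet RNA of F2 males was captured with oligo(dT) and sequenced on an Illumina instrument. The authors deposited 1 table of estimated counts per gene for each library analysed here. The submitters' processing notes list Bowtie2, RSEM and DESeq2, while the study's methods name HISAT2 as aligner. The genome build, the annotation and the counting strand are not given in the sources used here. The 10 genes had exactly whole estimated counts in both libraries (no tolerance), while 8.56% of all genes in the control-F2 and 9.28% in the AE-F2 library did not.

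Estimated counts were rounded. Libraries of 16285881 and 21278511 counts were scaled with TMM factors (edgeR 4.0.16, R 4.3.3) over the 13627 genes that averaged 10 or more counts. Log2 ratios used a pseudocount of 0.5, with 95% intervals taken from the exact binomial (Clopper-Pearson) limits of the part of its counts in AE-F2 (scipy 1.17.1). CPM used library totals with exact Poisson intervals. Lengths, positions and 3′ UTRs came from GENCODE M21 (GRCm38), matched by gene identifier for 21806 of 21899 genes, and promoters and microRNAs from RefSeq (GRCm38.p6). Since the annotation used for counting is unknown, levels per kilobase are approximate. Scripts were tested on simulated data. With 1 library per group no test across replicates was made.

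The 10 genes and all lists were chosen with earlier results of these data known. Of each partner or marker list the text names up to the 4 best counted genes, any gene past 2-fold that averaged 100 or more counts, and markers at 3 counts or fewer. Ldhb, Pdk4, Slc16a3, Hk2, Hk3, Slc2a3, Smad1, Smad2, Tgfb1, Tgfbr2, Inhbb, Pgk1, Pdx1, Mafa, Prodh, Fcgr1, Fcgr4, Dpt, Lum, Pi16, Cd3d, Cd3e and 5 genes of the wider silenced list are named outside this rule. Alternatives covered scaling, pseudocount, filter, fold limit, interval level, transcript length, equal total counts, and trends with mean count, GC content and length. A comparison of Hk1 with a partner gene is not reported here.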

Additional observations from a re-analysis of the deposited data

How the results depend on the processing

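Over the alternatives, 256 values stayed within a counting interval around the main value or, for counts of genes, within 1.5-fold of the main count. The other 10 did not, and a value among the 256 could still change sign or cross the 2-fold limit. Every one of the 10 genes had a log2 ratio above 0 under every scaling, filter, pseudocount and trend tried, the interval of Smad3 included equality in each setting that gave one, and the median ran from 0.76 to 0.84 where all 10 genes were kept. It was 0.63 over the 8 genes left with a minimum mean of 50 counts. The number of genes at least 2-fold higher was 5, became 3 with a minimum mean of 50 counts, which leaves out Pdgfra and Slc16a1, and was 8 with the 1.5-fold limit. It was 4 after thinning the AE-F2 library to the total count of the control-F2 library and 4 after removing a trend with mean count, both chosen after seeing the data, and 4 with a pseudocount of 5. The ratio of Igfbp4, 0.94 to 1.06 over the settings, lies at that limit. Levels depend on transcript length: the median over the 10 genes was 1.70 CPM per kilobase in the control-F2 and 2.58 in the AE-F2 library, 3.66 and 6.73 with the median coding transcript, and 1.20 and 1.67 with merged exons. The summed β-cell markers had a log2 ratio of 0.0026, which was -0.0013 with library totals and 0.020 with upper quartile scaling. With upper quartile scaling the alpha sum was at 0.47. The sums for delta, PP and endothelial markers and the medians of the growth factor and TGF-β lists, all just below 0, turned to 0.012, 0.0011, 0.0048, 0.0019 and 0.010 with that scaling. At a 99% level 8 intervals of the 10 genes lay above equality. No paired analysis was possible because only 1 library per group was analysed, and for the same reason no replicate could be left out. Depth limits Pdgfra and Slc16a1 most, with 10 and 11 counts in the control-F2 library.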
